A study of Homo sapiens with 4 samples.

Results

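The genes described here are the keratins, the claudins, the desmosomal cadherins with their plaque proteins, occludin, the TJP scaffold proteins and the adhesion protein EPCAM, whose symbols define the list. The families were picked with earlier results of these data known, although no measured value decides which genes of a family are members. Of 99 such genes in the RefSeq annotation, 88 have a named transcript cluster on the array, out of 14884 genes with one. They comprise 26 type I keratins, 21 type II keratins, 24 claudins, 3 other tight junction genes, 7 desmosomal cadherins, 6 desmosomal plaque genes and EPCAM. The remaining genes, among them CDH1, CDH17, KRT6A, KRT6B and KRT17, are not analysed here.
The study used HCT116 cells, from a cancer of the colon and rectum, and HepG2 cells, from a liver cancer, both bought from ATCC and each kept for 24 h with MP-HX, the hexane extract of Melicope ptelefolia leaves, or with vehicle. HCT116 received 60 µg/mL and HepG2 78 µg/mL, so cell line and dose differ together. The vehicle control is labelled 0.3% DMSO for HCT116 and 0.39% for HepG2, whereas the methods give 0.39% for control cells with no difference between the lines, so whether the vehicles differed is not settled. RNA of 3 cultures was pooled for each of the 4 arrays, which leaves 1 array for each line and treatment. A difference between MP-HX and vehicle within a line therefore has no replicate check and no p-value, and precision is limited by how few arrays there are.

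Keratins are the intermediate filament proteins of epithelia. Each filament is built from pairs of a type I and a type II chain, and KRT8 with KRT18 is the pair of simple epithelia such as liver and gut. Desmosomes anchor these filaments at the cell surface through the desmocollins and desmogleins, which bind the plaque proteins plakoglobin (JUP), the plakophilins and desmoplakin (DSP). Tight junctions seal the space between epithelial cells with strands of claudins, some of which form barriers and others pores, together with occludin and the scaffold proteins of the TJP family.

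The promoters of 4 genes on which the results turn are shown first. The first 3 belong to the claudins and occludin that lay 2-fold or more above vehicle, and the last to CLDN7, which differed most between the lines among the claudins higher in HCT116. Each run covers 250 bases before to 50 bases after a start site, 5′ to 3′ on the strand of the gene, from RefSeq on GRCh38.p14. Capitals mark TGACTCA, the motif of AP-1, in CLDN4 and CLDN15, and CACCTG, the E-box of SNAI and ZEB factors, in OCLN and CLDN7, on either strand, so that a match on the other strand reads TGAGTCA or CAGGTG.
CLDN4 promoter, chr7:73830746-73831045 (+): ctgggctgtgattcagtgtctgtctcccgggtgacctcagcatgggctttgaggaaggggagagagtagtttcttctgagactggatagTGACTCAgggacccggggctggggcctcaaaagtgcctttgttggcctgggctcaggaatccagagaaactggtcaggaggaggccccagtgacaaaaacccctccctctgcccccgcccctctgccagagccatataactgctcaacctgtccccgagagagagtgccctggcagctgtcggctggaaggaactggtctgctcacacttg
CLDN15 promoter, chr7:101237753-101238052 (-): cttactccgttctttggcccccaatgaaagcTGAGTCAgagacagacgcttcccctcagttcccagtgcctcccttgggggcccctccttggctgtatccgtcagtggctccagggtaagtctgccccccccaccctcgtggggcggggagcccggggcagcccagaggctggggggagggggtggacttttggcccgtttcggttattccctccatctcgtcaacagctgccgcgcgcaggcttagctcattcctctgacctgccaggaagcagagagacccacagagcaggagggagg
OCLN promoter, chr5:69492540-69492839 (+): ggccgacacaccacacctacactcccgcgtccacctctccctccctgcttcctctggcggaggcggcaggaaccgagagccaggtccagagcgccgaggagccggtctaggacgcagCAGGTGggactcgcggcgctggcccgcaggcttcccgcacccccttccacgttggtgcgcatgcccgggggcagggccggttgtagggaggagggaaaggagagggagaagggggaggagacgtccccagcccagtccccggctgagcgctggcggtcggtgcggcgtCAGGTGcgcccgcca
CLDN7 promoter, chr17:7262429-7262728 (-): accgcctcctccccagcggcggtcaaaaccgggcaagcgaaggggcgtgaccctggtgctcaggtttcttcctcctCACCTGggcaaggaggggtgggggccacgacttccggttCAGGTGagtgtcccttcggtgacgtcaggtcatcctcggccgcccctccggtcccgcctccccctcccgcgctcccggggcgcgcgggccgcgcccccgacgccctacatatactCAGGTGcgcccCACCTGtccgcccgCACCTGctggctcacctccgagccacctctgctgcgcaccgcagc
For OCLN and CLDN7, which have 2 windows each in the table, the one with more matches is shown. RefSeq windows were found for 64 of the 88 genes, 84 windows in all. KRT23, KRT80, PKP2, KRT18, KRT19 and EPCAM are among the genes without a window, so their promoters were not searched. The AP-1 motif occurred in 2 of them, those of CLDN4 and CLDN15, where it began 161 and 219 bases before the start site, against 4.95% of all 35116 windows. The E-box occurred in 25 of the 84 windows (29.8%), against 20.6% of all windows, and the CLDN7 window shown holds 5, of which 4 lie before the start site. The composite motif of CHOP and C/EBP, TGATGCAAT, was in 0.236% of all windows and the palindromic motif of HNF1 in 0.0057%, and neither was in a window of these genes. None of these motifs contains another, and a match describes letters in the window, not a bound site.

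Values are log2 signal of the brightest cluster of each gene, and log2 fold changes subtract the vehicle array of a line from its MP-HX array, so that 1 is a 2-fold difference. The array medians over all 48226 clusters were 4.33 and 4.31 in HCT116 with MP-HX and vehicle, and 3.97 and 4.03 in HepG2, and a signal near or under them is treated as dim. Hepatocyte markers separated the lines, with 11 measured genes at a median of 11.65 in the HepG2 vehicle array and 3.62 in that of HCT116, and 7 colon epithelium genes had medians of 4.48 and 5.60. Among the latter VIL1 went the other way, at 9.87 in HepG2 and 4.75 in HCT116 with vehicle, and CEACAM5 and CEACAM6 were under the median on all 4 arrays. With MP-HX 2 of the hepatocyte genes, FGA and FGG, were at least 2-fold lower in HepG2. The 5 measured squamous markers had medians of 3.14 to 3.92. Of these KRT1, KRT5, KRT10 and KRT14 are themselves members, and IVL alone is not. KRT14 lay above the array median on 3 arrays, at 4.65 with vehicle and 5.02 with MP-HX in HCT116, and 4.38 with vehicle in HepG2. Of the blood cell list CD68 alone was measured, a lysosomal protein of macrophages, at 7.40 with vehicle and 10.01 with MP-HX in HCT116, and 9.75 and 10.81 in HepG2. Its part in the results was not tested. Of the fibroblast and endothelial list 2 genes were measured, PECAM1 and VWF, both endothelial, and they lay between 3.42 and 4.23. Its fibroblast genes were not measured.

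Between 42 and 44 of the 88 members lay above the median of each array. The medians and quartiles are over all 48226 clusters, of which 16098 have 1 gene symbol, whereas a member is the brightest cluster of its gene. The share of all named genes past them was not counted, so these counts describe levels and show no excess or lack. Of the 88 genes, 35 lay under the median on all 4 arrays and 53 above it on at least 1. Among the keratins 24 of 47 were under the median throughout, and 3 of 47, KRT8, KRT18 and KRT19, were in the upper quartile of every array. Among the cadherins of stratified epithelia DSC1, DSG1, DSG3 and DSG4 were under the median on all arrays, whereas DSC3 was above it on 3. DSC2 and DSG2 were in the upper quartile on all 4. In all, 14 members were in the upper quartile on all 4 arrays, with the desmosomal genes DSC2, DSG2, DSP, JUP, PKP2, PKP3 and PKP4, the tight junction genes CLDN3, OCLN and TJP1, and EPCAM beside these keratins. CLDN19, KRT31 and KRT85 were in the upper quartile on at least 1 array but not on all 4. KRT19P2, a pseudogene symbol, and 7 other pseudogene and antisense symbols of the families were not counted as members.

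**Figure D1:**
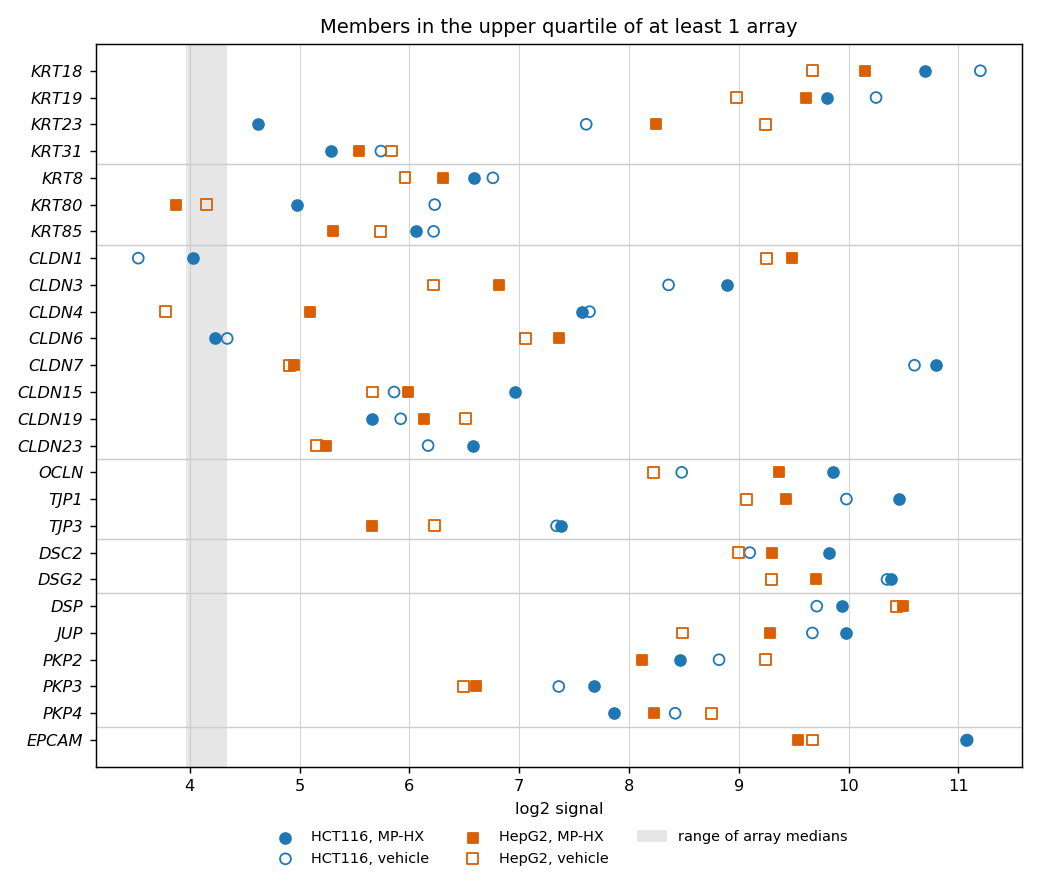
Log2 signal (x axis) of the 26 members in the upper quartile of at least 1 array, ordered by family, with circles for HCT116, squares for HepG2, filled symbols for MP-HX and open symbols for vehicle. CLDN1, CLDN6 and KRT23 lie further right in HepG2 and CLDN4 and CLDN7 in HCT116, and each point is 1 array of pooled RNA.

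Few of these genes differed from vehicle by 2-fold. In HCT116, 4 of 88 members (4.55%) lay at least 2-fold from vehicle, against 5.42% of all genes. Of these 2 were higher, against 2.43% of all genes, and 2 lower, against 2.99%. In HepG2, 3 of 88 (3.41%) did, against 5.44%, with 2 higher, against 3.18%, and 1 lower, against 2.26%. These shares are near or under those of all genes. At any size 46 members (52.3%) lay above vehicle in HCT116, against 49.6% of all genes, and 39 (44.3%) in HepG2, against 47.0%. The median log2 fold change of the members was 0.04 in HCT116 and -0.06 in HepG2, beside 0.00 over all genes in each line. OCLN was the 1 member at least 2-fold apart in both lines, where 0.927% of all genes were that much higher in both and 0.994% that much lower. A common effect of MP-HX in both lines was tested in limma, where the line was a term and 1 degree of freedom was residual. No array repeats a line and treatment, so a gene's own scatter in this fit is only how unequally MP-HX moved it in HCT116 and HepG2. The standard errors and p-values therefore do not measure variation between replicates. In this fit 0 members and 0 of all genes had an adjusted p under 0.05. At an unadjusted p under 0.05 there were 7 members (7.95%), 4 higher and 3 lower, against 13.0% of all genes.

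**Figure D2:**
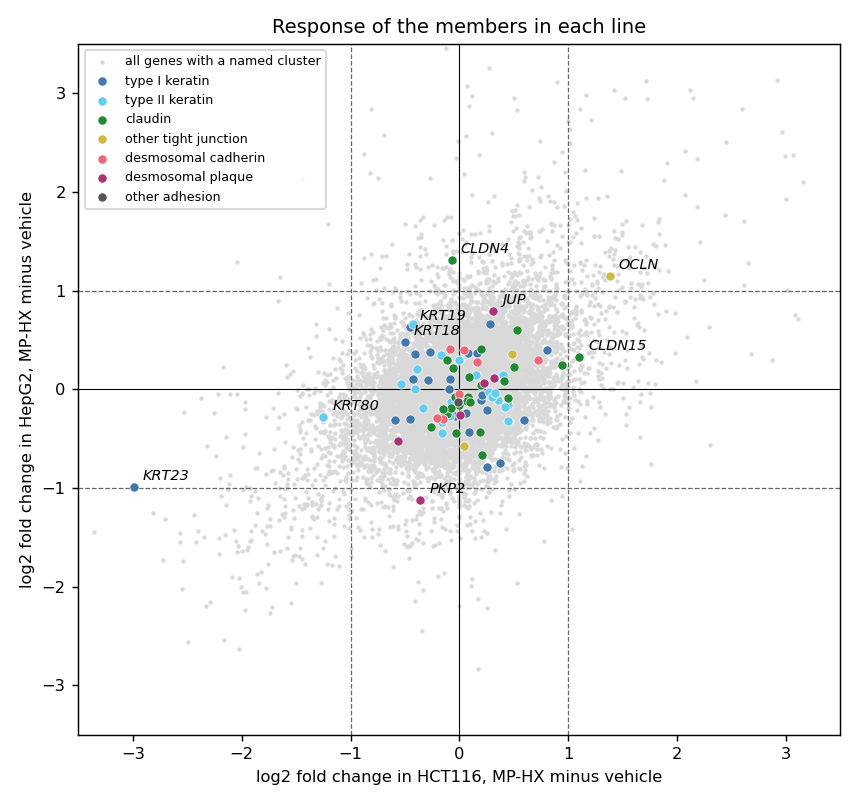
Log2 fold change in HCT116 (x axis) and HepG2 (y axis) for all genes with a named cluster in grey and the members coloured by family. Dashed lines mark a 2-fold difference, beyond which OCLN lies in both lines, KRT23, KRT80 and CLDN15 in HCT116, and CLDN4 and PKP2 in HepG2.

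KRT23, a type I keratin of glandular epithelia, had the largest decrease of any member in HCT116, untested in that line. Its log2 signal was 7.61 with vehicle and 4.62 with MP-HX in HCT116, and 9.24 and 8.25 in HepG2. All 4 values were above the array medians, and the MP-HX array was the lower one in both lines. The difference was 7.94-fold in HCT116 (log2 fold change -2.99) and 1.99-fold in HepG2 (-0.99), just short of the threshold. The mean over the lines was -1.99 with a standard error of 0.53 (limma, adjusted p = 0.311). Its neighbours in the type I cluster on chromosome 17 were dim, KRT20 at 3.62 to 3.99 and KRT39 at 3.45 to 4.08.
KRT80, a type II keratin, had a signal of 6.23 with vehicle and 4.98 with MP-HX in HCT116, 2.38-fold lower. In HepG2 it was near the array medians, at 4.15 and 3.87. With 64 added to the linear signal, which shrinks differences of dim genes, the log2 fold change of KRT80 in HCT116 was -0.54 and that of KRT23 -1.55.

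KRT18 and KRT19 lay below vehicle in HCT116 and above it in HepG2. KRT18 had 11.20 with vehicle and 10.70 with MP-HX in HCT116, and 9.67 and 10.15 in HepG2. KRT19, a type I keratin of ducts and glands, had 10.25 and 9.80 in HCT116, and 8.98 and 9.61 in HepG2. In both genes the HCT116 arrays were above the HepG2 arrays, and the MP-HX arrays of the lines were closer to each other than the vehicle arrays. The log2 fold changes were -0.50 and 0.48 for KRT18, and -0.45 and 0.63 for KRT19, none of them at 2-fold. KRT8, the type II partner of KRT18, had 6.76 with vehicle and 6.59 with MP-HX in HCT116 (-0.17), and 5.96 and 6.31 in HepG2 (0.35). The only KRT8 cluster is annotated to a noncoding transcript, and how well it reads the coding ones was not tested. A second cluster named KRT18 had the same directions with -0.23 and 0.22, at signals of 6.63 to 7.97. Keratins have processed pseudogenes of near-identical sequence, so how much of either signal comes from KRT18 itself is uncertain. In the numbering of the clusters the second one stands beside KRT7, among the members on chromosome 12. The brighter one, whose values are given first, stands apart from them. Whether it reads a pseudogene was not tested. KRT7 had -0.43 and 0.66, but was dim in HepG2 with 3.42 with vehicle and 4.08 with MP-HX. These 3 members (3.41%) lay apart from vehicle in opposite directions by more than the robust standard deviation of all genes in each line. So did 2.65% of all genes, and no test of that difference is possible. The second KRT18 cluster did not reach that standard deviation, 0.371 in each line.
Among other keratins, KRT15, a type I chain of basal cells, had 5.15 with vehicle and 5.95 with MP-HX in HCT116 (log2 fold change 0.80), and 4.18 and 4.58 in HepG2 (0.40). Over the 26 type I keratins the median log2 fold change was 0.01 in HCT116 and -0.03 in HepG2, and over the 21 type II keratins -0.08 in each.

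**Figure D3:**
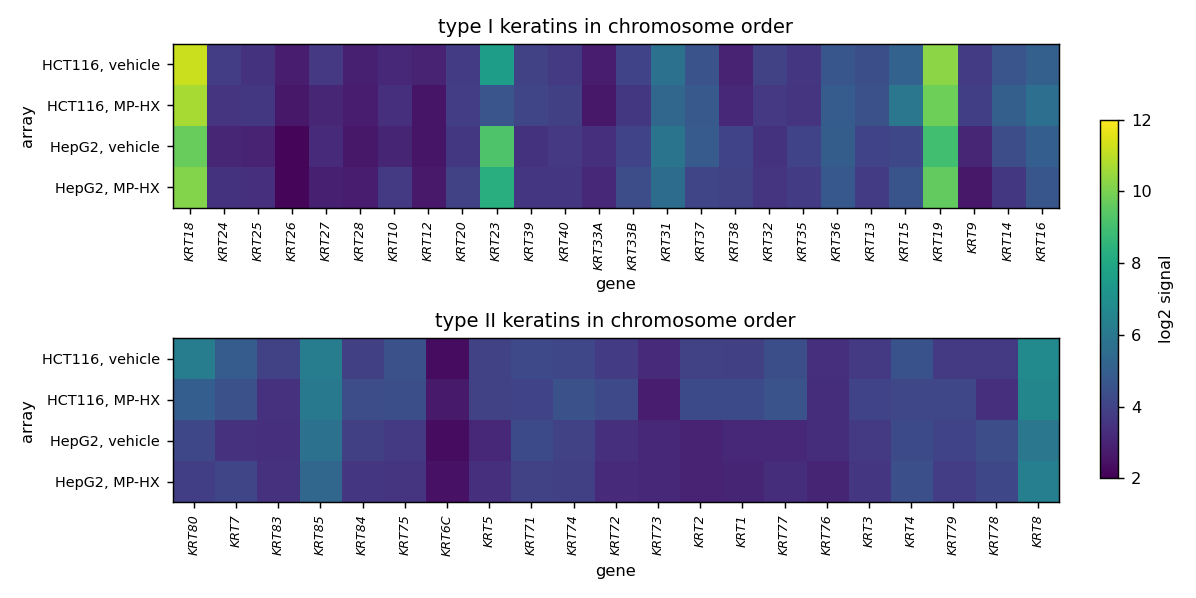
Log2 signal (colour scale) of the 26 type I and 21 type II keratins, 1 column a gene in chromosome order and 1 row an array. KRT18, KRT19 and KRT23 stand out among type I chains, and the KRT23 column is dark in the HCT116 array with MP-HX alone. Among type II chains KRT8 is the brightest on each array but is near KRT85.

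Occludin, the first integral protein described in tight junctions, was higher with MP-HX in both lines. The signal of OCLN was 8.48 with vehicle and 9.86 with MP-HX in HCT116, and 8.22 and 9.37 in HepG2. Both MP-HX arrays lay above both vehicle arrays. The difference was 2.60-fold in HCT116 (log2 fold change 1.38) and 2.22-fold in HepG2 (1.15). The mean of 1.27 had a standard error of 0.17 and an adjusted p of 0.192 in limma, which was 0.0448 after quantile normalization and 0.145 or more under each other setting. A cluster of the pseudogene OCLNP1 had 1.12 and 0.78 at signals of 8.12 to 9.93, and probes of the gene and its copy may not be separable. Its scaffold TJP1 (ZO-1) had 9.98 with vehicle and 10.46 with MP-HX in HCT116, and 9.07 and 9.43 in HepG2. TJP3 (ZO-3) had 7.34 and 7.38 in HCT116, and 6.23 and 5.66 in HepG2.

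Of the 24 claudins 1 was at least 2-fold higher in each line, a different one, and 0 were at least 2-fold lower. Of all genes 2.43% were that much higher in HCT116, 3.18% in HepG2 and 0.927% in both, so a count of 1 in 24 is near the background. The median log2 fold change of the claudins was 0.09 in HCT116 and -0.08 in HepG2. CLDN15, a claudin of cation-selective pores in the gut, had a signal of 5.86 with vehicle and 6.96 with MP-HX in HCT116, 2.14-fold higher. In HepG2 it had 5.66 and 5.99, 1.26-fold. CLDN4, a barrier claudin of many epithelia, had 3.78 with vehicle and 5.09 with MP-HX in HepG2, 2.48-fold. The vehicle value lay under the array median, and against that median the log2 fold change was 1.06. In HCT116 the CLDN4 signal was 7.64 and 7.57, so the array with MP-HX in HepG2 lay under both HCT116 arrays. With 64 added to the linear signal, CLDN4 in HepG2 had a log2 fold change of 0.34 and CLDN15 in HCT116 0.63.
CLDN3, which lies beside CLDN4 on chromosome 7, had 8.36 with vehicle and 8.89 with MP-HX in HCT116, and 6.22 and 6.82 in HepG2. Its log2 fold changes were 0.53 and 0.60, with a mean of 0.57 and a standard error of 0.17 (limma, adjusted p = 0.338). CLDN12 had 3.97 and 4.91 in HCT116, from under the array median, and 4.20 and 4.45 in HepG2. CLDN2, the pore-forming claudin of leaky epithelia, had 5.49 with vehicle and 5.38 with MP-HX in HCT116, and 5.21 and 4.96 in HepG2.

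**Figure D4:**
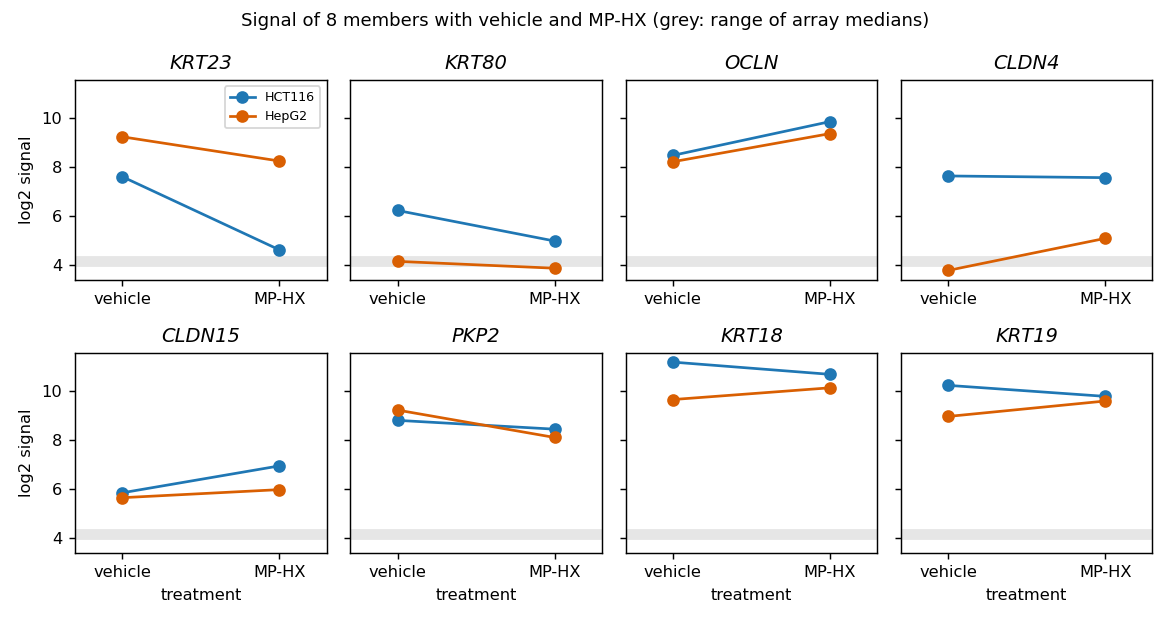
Log2 signal (y axis) of 8 members with vehicle and MP-HX (x axis), 1 point per array, with the grey band at the range of the array medians. KRT23 is lower and OCLN higher with MP-HX in both lines, whereas the lines of KRT18 and KRT19 converge.

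Of the 7 desmosomal cadherins and 6 plaque genes 0 were at least 2-fold from vehicle in HCT116, against 5.42% of all genes, and 1 plaque gene was in HepG2, against 5.44%. PKP2, a plakophilin that links DSP to the cadherins, had a signal of 9.24 with vehicle and 8.12 with MP-HX in HepG2, 2.17-fold lower. In HCT116 it had 8.82 and 8.46, 1.28-fold lower, so the MP-HX arrays lay under both vehicle arrays. PKP4, a relative found at adherens junctions too, had 8.42 with vehicle and 7.86 with MP-HX in HCT116, and 8.75 and 8.23 in HepG2. The mean log2 fold change was -0.74 for PKP2 (standard error 0.25, limma adjusted p = 0.375) and -0.54 for PKP4 (0.17, adjusted p = 0.346). JUP, the plaque protein shared with adherens junctions, had 9.67 and 9.98 in HCT116, and 8.49 with vehicle and 9.28 with MP-HX in HepG2, 1.73-fold higher.
DSC2, the desmocollin of simple epithelia, had 9.10 with vehicle and 9.82 with MP-HX in HCT116, 1.65-fold higher. In HepG2 it had 9.0 and 9.30. DSG2, the desmoglein of the same epithelia, had 10.35 and 10.39 in HCT116, and 9.30 and 9.70 in HepG2. DSP had 9.71 with vehicle and 9.94 with MP-HX in HCT116, and 10.44 and 10.50 in HepG2. EPCAM, a homophilic adhesion protein that binds CLDN7, had 11.08 and 11.07 in HCT116, and 9.67 and 9.54 in HepG2.

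The lines differed far more than the treatments did, with CLDN1 and CLDN7 at opposite ends. Each line has 2 arrays, 1 of each treatment. The difference HepG2 minus HCT116 was tested in limma with treatment as a term and 1 residual degree of freedom. As in the fit of the common effect, the standard errors and p-values do not measure variation between replicates of a line and treatment. Of the 88 members 25 (28.4%) had an adjusted p under 0.05, against 32.5% of all genes. Among them KRT1, KRT2, KRT9 and KRT38 were dim, under the array median on all 4 arrays. With 64 added to the linear signal 0 members and 0 of all genes were called by limma, with 24 members at an unadjusted p under 0.05 and a smallest adjusted p of 0.0522, so each call between the lines given here is lost in that setting. Of the 25, 6 (6.82%) were higher in HepG2, against 6.22%, and 19 (21.6%) in HCT116, against 26.3%. As the median gene was -0.42 lower in the HepG2 vehicle array and -0.41 lower in the MP-HX array on the log2 scale, the split depends on the scaling. With each array centred on its median 9 were higher in HepG2, against 9.12% of all genes, and 12 in HCT116, against 11.4%. After quantile normalization 11 and 13 were, against 12.3% and 13.8%. Between the vehicle arrays alone 5 members were at least 2-fold higher in HepG2, against 5.76%, and 16 lower, against 19.3%. Between the MP-HX arrays these were 3, against 5.52%, and 18, against 17.2%. The 18 members called in all 3 fits comprised the 6 higher in HepG2 and 12 higher in HCT116. Of these 18, 16 were above the median of at least 1 array, and KRT2 and KRT38 were not. With any 1 of the 4 arrays left out, and no term for treatment, 0 members and 0 of all genes were called by limma, with 20 to 26 members at an unadjusted p under 0.05. In these cells of 1 line each, fewer cells that make a transcript and less of it per cell cannot be told apart.
CLDN7, a claudin of gut and gland epithelia, had 10.60 with vehicle and 10.80 with MP-HX in HCT116, and 4.91 and 4.95 in HepG2. The difference was -5.77 (standard error 0.17), 54.6-fold lower in HepG2 with an adjusted p of 0.00274 in limma. CLDN1, a barrier claudin of skin and liver, had 9.25 and 9.48 in HepG2, and 3.53 and 4.03 in HCT116, under the array medians there. It was 5.59 higher in HepG2 (standard error 0.18, limma adjusted p = 0.00303). CLDN6, an embryonic claudin, had 7.06 with vehicle and 7.36 with MP-HX in HepG2, and 4.34 and 4.23 in HCT116, near the median. The treatment moved none of these 3 genes by 2-fold in either line.
CLDN4 was -3.17 lower in HepG2 (standard error 0.38, limma adjusted p = 0.0154), a gap of -3.86 between the vehicle arrays and of -2.48 between the MP-HX arrays. CLDN3 was -2.11 lower (0.17, adjusted p = 0.00754), DSC3 -2.07 (0.17, adjusted p = 0.00788) and EPCAM -1.47 (0.17, adjusted p = 0.0141). DSC3, a desmocollin of basal layers, had 6.05 with vehicle and 6.21 with MP-HX in HCT116, and 3.92 and 4.20 in HepG2. KRT23 was 2.63 higher in HepG2 (0.53, limma adjusted p = 0.0341), with a gap of 1.63 between the vehicle and 3.63 between the MP-HX arrays. KRT80 was -1.60 lower in HepG2 (0.29, adjusted p = 0.0295) and TJP3 -1.42 (0.22, adjusted p = 0.0233). DSG2, JUP, PKP3 and TJP1, also called at -0.97 to -0.87, did not pass with centred arrays. CLDN19, DSP and the dim KRT33A were called with centred arrays but not in the main fit. In the main fit they were 0.53, 0.645 and 0.525 higher in HepG2 (limma adjusted p from 0.0556 to 0.0802). CLDN11, a claudin of myelin and testis, had 5.44 with vehicle and 4.78 with MP-HX in HepG2, and 3.65 and 3.86 in HCT116. CLDN23 had 6.17 with vehicle and 6.58 with MP-HX in HCT116, and 5.15 and 5.24 in HepG2. Both were called between the lines (limma adjusted p = 0.0345 and 0.0225). So were CLDN18 at -1.145, KRT75 at -0.825, KRT77 at -1.22 and KRT78 at 0.72 (limma adjusted p from 0.0181 to 0.0447). Of these KRT75 did not pass with centred arrays. OCLN at -0.38, DSC2 at -0.31 and PKP2 at 0.04 had adjusted p-values from 0.163 to 0.906 in limma.

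**Figure D5:**
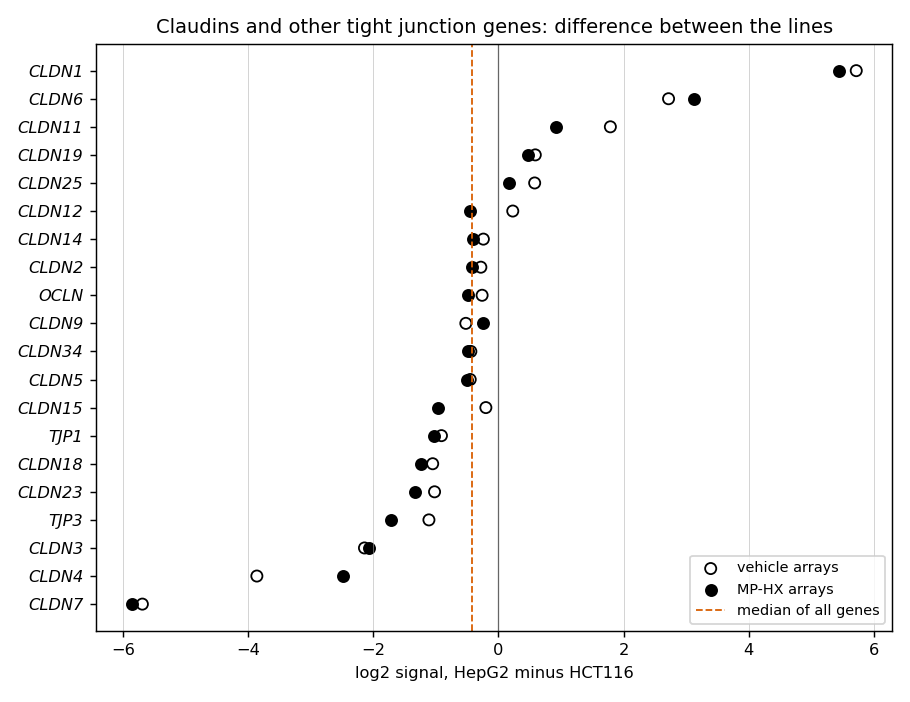
Log2 signal of HepG2 minus HCT116 (x axis) for the claudins and other tight junction genes above the median of at least 1 array, open circles for the vehicle arrays and filled circles for the MP-HX arrays. The dashed line is the median of all genes, and CLDN1, CLDN6 and CLDN7 lie far from it in both pairs of arrays whereas the pairs of CLDN4 are the furthest apart.

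The lists of genes around these junctions had few members each, and their counts stand beside 5.42% of all genes at least 2-fold from vehicle in HCT116 and 5.44% in HepG2. Of 17 other tight junction genes 0 were at least 2-fold from vehicle in either line, with median log2 fold changes of 0.15 in HCT116 and 0.06 in HepG2. Of 6 adherens junction genes, NECTIN3, an adhesion protein, was lower in HCT116 (log2 fold change -1.23, and -0.59 in HepG2), and PVR, the poliovirus receptor of the nectin-like family, was higher in HepG2 (1.31, and 0.55 in HCT116). Among 6 cytolinker and hemidesmosome genes 1 was at least 2-fold higher in each line, PLEC, which ties keratin filaments to membranes. Its signal was 7.80 with vehicle and 9.07 with MP-HX in HCT116, and 6.18 and 7.21 in HepG2.
Of 8 other intermediate filament genes 3 were at least 2-fold from vehicle in HCT116 and 1 in HepG2. PRPH (peripherin) was higher in HCT116 (1.10), LMNB1 and LMNB2, nuclear lamins, lower there (-2.54 and -1.39), and LMNB1 lower in HepG2 (-1.74). Of 15 cornified envelope genes, SPRR2A was lower in HCT116 (-1.08) and CSTA, a protease inhibitor, higher in HepG2 (1.22). Of 3 surface protease genes and relatives, CDCP1 was higher in HCT116 (1.11).
Of 9 transcription factors of the epithelial-mesenchymal transition 1 was at least 2-fold higher in HCT116, against 2.43% of all genes, and 2 were in HepG2, against 3.18%. SNAI2, a repressor that binds E-boxes, was among them in both lines. Its signal was 5.52 with vehicle and 6.68 with MP-HX in HCT116, and 5.29 and 8.27 in HepG2. SNAI1 had 7.65 with vehicle and 6.77 with MP-HX in HCT116 (-0.88), and 5.62 and 6.95 in HepG2 (1.33). Of 12 epithelial transcription factors KLF5 alone was at least 2-fold apart, in HepG2 (1.61). ESRP1, a splicing factor of epithelial cells, had 10.34 with vehicle and 11.18 with MP-HX in HCT116, and 2.90 and 3.25 in HepG2. None of the genes on these lists had an adjusted p under 0.05 for the effect shared by the lines in limma, and their part in the values of the junction genes was not tested.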

How the data were processed

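RNA of 3 cultures was pooled per assay point and hybridised to the Human Gene 2.0 ST array. The authors deposited log2 signal with 2 decimals for 48226 transcript clusters, made with GCOS, Affymetrix Expression Console (version 1.4) and Transcriptome Analysis Console (version 3.1), with a normalization not given in the sources used here. All 4 columns were used as deposited. Array annotation named 16098 clusters with 1 gene symbol, and each gene with several clusters was represented by the brightest. The members and lists were chosen with earlier results of these data known.
Differences within a line were counted at the 2-fold threshold of the study. The difference between the lines and the effect shared by them were fitted with limma 3.58.1 in R 4.3.3 over all named clusters. The model was additive in line and treatment with Benjamini-Hochberg adjustment, and leaves 1 residual degree of freedom. As no line and treatment was repeated, standard errors and p-values of these fits hold no measure of replicate variation. The fits were tested on simulated data. Python 3.11.15 made the counts and figures.
Named are the members at least 2-fold from vehicle and above an array median, those in the upper quartile of the arrays or called between the lines, partner keratins, and the genes of the lists furthest from vehicle. DSC1, DSG1, DSG3, DSG4, KRT7, KRT15, KRT20, KRT39, CLDN2, CLDN12, KRT16, KRT16P2, KRT16P3, KRT19P2, ESRP1, FGA, FGG, VIL1, CEACAM5, CEACAM6 and CD68 were named after their values were seen. So were KRT1, KRT5, KRT10, KRT14, IVL, PECAM1 and VWF. Alternatives were 64 added to the linear signal, dim signals raised to the array median, quantile normalization, centred arrays, the mean of a gene's clusters, other folds, other prior variances and other model terms. Promoters are those of RefSeq.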

Additional observations from a re-analysis of the deposited data

Results flagged for a closer look

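KRT18 and KRT19 lay below vehicle in HCT116 and above it in HepG2, each by more than the robust standard deviation over all genes (0.371 in each line) and with all signals above the array medians. On the log2 scale KRT18 differed from vehicle by -0.50 in HCT116 and by 0.48 in HepG2. Only its brightest cluster went beyond that standard deviation, and which cluster measures KRT18 itself is uncertain. The second KRT18 cluster had -0.23 and 0.22, and the mean of the clusters was -0.365 and 0.35. The values of KRT19 were -0.45 and 0.63. With KRT7, which was dim in HepG2, 3 of 88 members (3.41%) met the first condition, against 2.65% of all genes. The difference between the lines was not tested, as each has 1 array per treatment.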

How the results depend on the processing

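At 1.5-fold, 9 members in HCT116 and 12 in HepG2 were apart from vehicle, and at 3-fold 1 and 0, with no test for either line. With 64 added to the linear signal 2 members in HCT116 and 1 in HepG2 were at least 2-fold apart. The same setting gave 0 members called between the lines by limma (24 at an unadjusted p under 0.05), and the cause was not tested. Leaving out any 1 array gave 0 called in each of the 4 fits, which have no term for treatment and were chosen after the data were seen, as were the fits with centred arrays. Quantile normalization gave 1 member with an effect shared by the lines, OCLN, and 229 such genes in all (1.54%). Settings other than these gave 19 to 29 members for the count between the lines, against 25. Of 530 log2 fold changes of single members under other settings, 514 moved by less than the robust standard deviation of all genes, 16 moved by more and 0 of those at 2-fold changed direction. Of 125 line differences of single members 87 were still called, 38 were not and 0 changed direction. Cultures could not be paired within a line, as each line and treatment has 1 array of pooled RNA. The main limma fit of the effect shared by the lines had line as a term. Each line was thus a pair of MP-HX and vehicle arrays. The main fit of the difference between the lines had treatment as a term. With any 1 array left out and no term for line, fits chosen after the data were seen, limma called 0 members for the effect shared by the lines, with 0 to 1 at an unadjusted p under 0.05 and OCLN at an estimate of 1.02 to 1.51 on the log2 scale (adjusted p 0.999 to 1.0). Of all genes 2 were called without the HCT116 array with MP-HX and 0 without each other array.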

Other observations

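Pseudogene symbols of the keratins have clusters of their own, and whether the probes tell them from the genes they resemble was not tested. KRT19P2 had a log2 signal of 4.58 with vehicle and 3.52 with MP-HX in HCT116, and 3.52 and 2.98 in HepG2, close to or under the array medians. KRT16P3 had 5.20 with vehicle and 4.52 with MP-HX in HCT116, and 4.12 and 3.51 in HepG2. The cluster named KRT16 had 5.07 with vehicle and 5.66 with MP-HX in HCT116, and 4.99 and 4.68 in HepG2. KRT16P2 had 7.37 to 7.59 on all 4 arrays.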
